A study of Mus musculus with 5 samples.

Results

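Organic anion and cation transporters move drugs, toxins, urate and metabolic end products between blood and urine across the cells of the kidney tubule. The 8 genes described here were taken by name: Slc22a6, Slc22a8, Slc13a3, Slc22a12, Slc22a7, Slco1a1, Slc22a2 and Slc47a1. All 8 were listed in each of the 5 count tables, among 16934 genes in all. Their levels were followed across segments of the proximal tubule, across other cell classes and across kidney regions, in barcodes with at least 200 detected genes.

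The proximal tubule starts at the glomerulus as segment S1 in the cortex and ends as segment S3 in the outer medulla, and secretion of organic ions is among its main tasks. On the blood side, uptake carriers exchange organic anions for dicarboxylates or take up organic cations along the membrane potential. On the urine side, other carriers release the load or take back solutes such as urate.

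The data are Drop-seq libraries, a droplet method that marks the mRNA of a cell with the barcode of its bead and tags single molecules with identifiers, so that the counts are of molecules (UMIs). All came from kidneys of wild-type mice of a strain spelled C56BL/6N in the labels, digested with a cold protease and fixed in methanol, with no treatment. There was 1 library each of microdissected outer medulla, inner medulla and cortex, and there were 2 of whole kidney (whole kidney 2 and whole kidney 1). Age, sex, the number of animals and whether the libraries came from separate animals are not given in the labels, so the spread between libraries may be partly technical.

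At 200 genes or more, 12121 cells remained, with 898 to 3305 cells and 520663 to 2886013 UMIs per library and a median of 440 to 517 UMIs per cell. Only 4 cell barcodes occurred in 2 or more libraries. Clusters were built without the 8 genes and without a list of other transporters, and 8298 cells fell into clusters called proximal tubule-like from markers such as Lrp2, Slc34a1 and Kap. They were 62.5% of the cells of outer medulla, 10.0% of inner medulla, 73.3% of cortex, 79.4% of whole kidney 2 and 75.1% of whole kidney 1. Sub-clusters were placed by S1 and S3 markers, giving 3731 S1-like, 1811 intermediate and 2247 S3-like cells. Slc5a12, a sodium-coupled lactate carrier of early segments, averaged 64.4 ± 18.2 CPM in S3-like and 1262 ± 102 CPM in S1-like cells (SD, n = 4 libraries; CPM is UMIs per 1000000 UMIs of the summed cells). Slc7a13, an amino acid carrier of S3, averaged 1152 ± 58.6 CPM in S3-like and 41.8 ± 24.7 CPM in S1-like cells. A sub-cluster of 78 cells led by Cyp7b1, an oxysterol hydroxylase, lay beyond the S3-like cells on this marker axis and was kept apart. Another 431 proximal cells were left unplaced. Cyp7b1 and Serpina1f, also on the S3 list, stood at 995 and 595 CPM in these 78 cells. In S3-like cells Cyp7b1 averaged 3.04 ± 6.07 CPM (SD, n = 4), so the S3-like name rests on other members of the list. S2 markers were scored but placed no sub-cluster. Of them, Cyp2e1 averaged 3326 CPM in S3-like and 3207 CPM in intermediate cells, and Ttr 1157 and 4253 CPM. S3-like cells were 29.0% of the proximal cells of outer medulla and 24.2% of those of cortex, and Cyp7b1-led cells 2.57% and 0.178%. Whether the S3-like group includes S2 cells was not tested, so S3-like names a marker group here and not segment S3. S1-like cells, whose segment lies in the cortex, were found in every microdissected region and were 40.0% of the proximal cells of outer medulla, 21.1% of those of inner medulla and 48.3% of those of cortex.

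Along the proximal tubule, the carriers did not share 1 profile. In S3-like over S1-like cells, 7 of the 8 genes were higher and 1, Slc22a8, was lower, where 40.6% of all 5664 genes tested passed the same threshold (20.2% higher and 20.4% lower). The sizes ran from a log2 fold change of 5.51 for Slco1a1 to -0.73 for Slc22a8. The median over the 8 genes was 1.91, against -0.01 over all genes tested. These values come from edgeR's quasi-likelihood test on UMIs summed per library and group, with library as a block, in the 4 libraries with enough cells (outer medulla, cortex, whole kidney 2 and whole kidney 1), at a Benjamini-Hochberg adjusted p of at most 0.05. Because other genes of the same cells drew the groups, the share of all genes called is a background and not a finding. In S3-like cells, Kap alone, an androgen-regulated kidney transcript, took 97348 ± 14802 CPM, against 6401 ± 562 CPM in S1-like cells (SD, n = 4), and plain CPM of other genes in S3-like cells are lowered by that share.

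**Figure D1:**
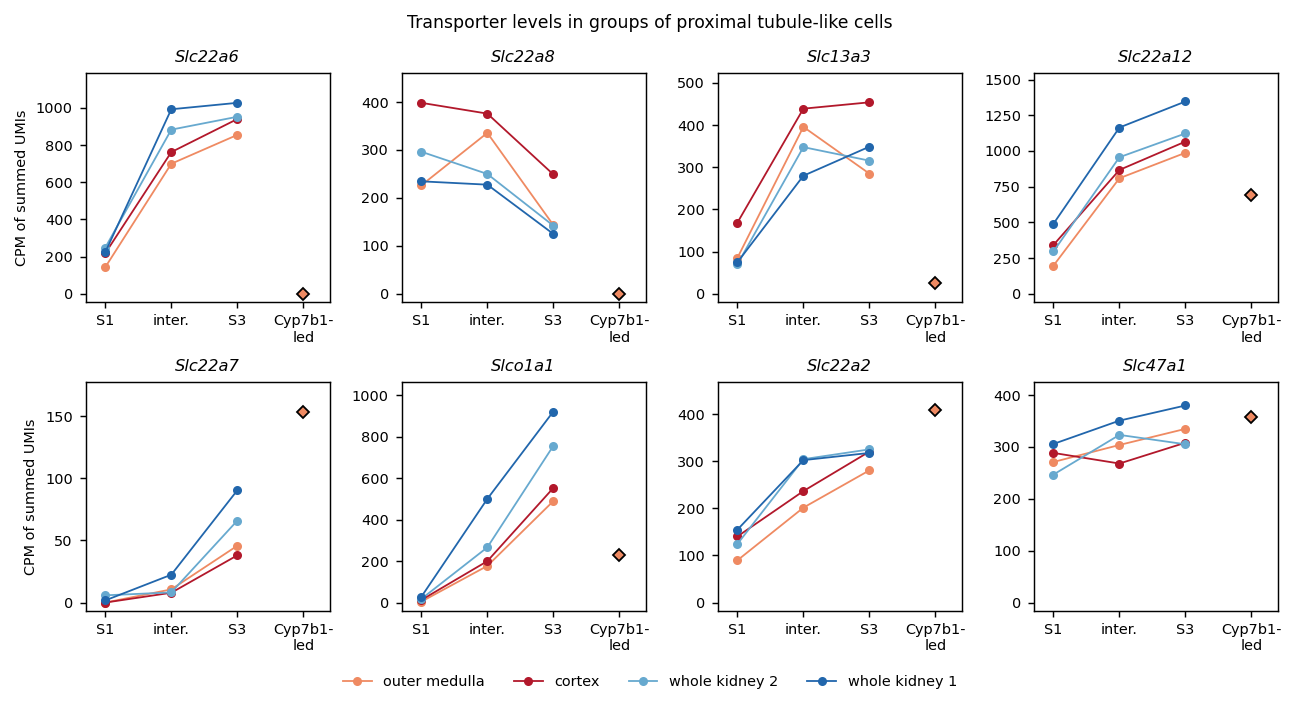
Level of each transporter, in CPM of the summed cells, in S1-like, intermediate and S3-like proximal cells of 4 libraries (lines) and in the Cyp7b1-led cells of outer medulla (diamonds, 39 cells). Slco1a1 and Slc22a7 are near 0 in S1-like cells, Slc22a8 is lowest in S3-like cells among the 3 joined groups in every library, and Slc22a6 and Slc22a8 had 0 UMIs in the Cyp7b1-led cells of outer medulla.

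Slc22a6 and Slc22a8 encode OAT1 and OAT3, the exchangers that load organic anions from blood into proximal cells, and they lie next to each other on chromosome 19 with no coding gene between them in the RefSeq gene table. Their RefSeq promoter windows (GRCm38.p6, 250 bases before to 50 after the start, both on the plus strand) are shown because the neighbouring genes had opposite segment profiles. Capitals mark GTTAAT, a run of letters present in both windows, which was chosen and searched on both strands after these sequences had been looked at.
Slc22a6, chr19:8617746-8618045: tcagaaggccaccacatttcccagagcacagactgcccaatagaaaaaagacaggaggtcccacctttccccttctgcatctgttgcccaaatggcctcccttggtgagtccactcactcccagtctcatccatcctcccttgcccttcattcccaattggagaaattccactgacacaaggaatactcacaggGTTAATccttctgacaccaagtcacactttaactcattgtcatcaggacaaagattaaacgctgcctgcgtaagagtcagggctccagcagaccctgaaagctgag
Slc22a8, chr19:8592932-8593231: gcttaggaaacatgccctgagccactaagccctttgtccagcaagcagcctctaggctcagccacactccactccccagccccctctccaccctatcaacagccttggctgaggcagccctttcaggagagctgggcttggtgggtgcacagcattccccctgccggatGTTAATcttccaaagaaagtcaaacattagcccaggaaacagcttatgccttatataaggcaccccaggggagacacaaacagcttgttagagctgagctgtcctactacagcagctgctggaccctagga
The match starts 56 bases before the start site in Slc22a6 and 81 bases before it in Slc22a8. The table held windows for 6 of the 8 genes, 2 of the 6 carried the letters, and 7.10% of all 32851 windows did. A match is a description of the sequence and not a binding site.

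Slc22a6 was low in S1-like cells and high from the intermediate group on. Its level was 855 CPM in outer medulla, 940 in cortex, 952 in whole kidney 2 and 1027 in whole kidney 1 in S3-like cells, against 143, 218, 249 and 224 CPM in the S1-like cells of the same libraries. Every S3-like value exceeded every S1-like value. The log2 fold change was 2.25 (SE 0.08, edgeR adjusted p = 8.23e-29). Intermediate cells held 700 to 993 CPM and were higher than S1-like cells by 2.01 on the log2 scale (SE 0.09, adjusted p = 1.15e-24). S3-like over intermediate gave 0.24 (SE 0.07, adjusted p = 0.0476), a call that was lost in 9 of 10 alternatives, with each of the 4 libraries left out among them (edgeR adjusted p of 0.0748 to 0.346). A UMI of Slc22a6 was seen in 45.5 to 50.6% of S3-like and 7.41 to 13.8% of S1-like cells, at median depths of 640 to 689 and 514 to 542 UMIs, against 0 to 3.13% of principal cell-like cells at 386 to 511 UMIs. After thinning each cell to 300 UMIs the shares were 20.6 to 25.2%, 2.43 to 6.68% and 0%, with 145, 410 and 142 shallower cells left out.

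Slc22a8 had the opposite profile. Its level was 144 CPM in outer medulla, 249 in cortex, 142 in whole kidney 2 and 125 in whole kidney 1 in S3-like cells, against 226, 398, 296 and 235 CPM in S1-like cells of the same libraries. Within each of the 4 libraries the S3-like value was lower, although the S3-like cells of cortex exceeded the S1-like cells of outer medulla and whole kidney 1. The log2 fold change was -0.73 (SE 0.11, edgeR adjusted p = 1.11e-07). Intermediate cells, at 228 to 376 CPM, did not pass against S1-like cells (log2 0.07, SE 0.11, adjusted p = 0.718), and S3-like cells were lower than intermediate cells by a log2 fold change of -0.79 (SE 0.12, adjusted p = 3.67e-06). The step for Slc22a8 thus lay between the intermediate and the S3-like group, whereas that of Slc22a6 lay between S1-like and intermediate cells. Within the S3-like cells, Slc22a8 stood at 271, 199 and 114 CPM in the 3 sub-clusters ordered by a falling level of S1 markers (their S3 marker level did not rise in that order), while Slc22a6 stood at 1066, 888 and 942 CPM. Their median depths in that order were 516.5, 525 and 1490 UMIs, and the first was led by Malat1 and Neat1. What part depth has in these levels was not tested.

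Slc13a3 encodes NaDC3, the sodium-coupled carrier that brings in the dicarboxylates which OAT1 and OAT3 exchange for organic anions. It was measured at 285 CPM in outer medulla, 454 in cortex, 316 in whole kidney 2 and 349 in whole kidney 1 in S3-like cells, against 85.1, 169, 69.9 and 74.7 CPM in S1-like cells. The groups did not overlap, and the log2 fold change was 1.93 (SE 0.12, edgeR adjusted p = 3.89e-19). The whole difference lay between S1-like and intermediate cells (log2 1.93, SE 0.13, adjusted p = 4.80e-17). S3-like over intermediate cells gave 0.00 with a 95% interval of -0.21 to 0.22, and 2 of 4 libraries went each way. Slc13a3 thus followed the profile of Slc22a6 and not that of Slc22a8 across these 3 groups, a comparison for which no test between genes was run.

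Among the other anion carriers were the largest changes of the 8 genes. Slc22a12 encodes URAT1, the exchanger that takes urate back from urine. It stood at 987 CPM in outer medulla, 1066 in cortex, 1123 in whole kidney 2 and 1346 in whole kidney 1 in S3-like cells, against 197, 342, 296 and 490 CPM in S1-like cells. The groups did not overlap, and the log2 fold change was 1.89 (SE 0.08, edgeR adjusted p = 2.45e-25). Intermediate cells lay between, with 809 to 1164 CPM. S3-like over intermediate gave 0.31 (SE 0.08, adjusted p = 0.00864), in the same direction in 4 of 4 libraries. That call was lost in 5 of 10 alternatives, among them without cortex (edgeR adjusted p = 0.0894) and without whole kidney 2 (edgeR adjusted p = 0.102).

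Slco1a1 encodes OATP1A1, a rodent carrier of steroid conjugates, bile acids and other large anions, and it had the steepest profile. Its level was 489 CPM in outer medulla, 553 in cortex, 756 in whole kidney 2 and 921 in whole kidney 1 in S3-like cells, against 4.48, 12.4, 17.5 and 27.8 CPM in S1-like cells. Whole kidney 1 was the highest and outer medulla the lowest of the 4 libraries in all 3 groups. The log2 fold change was 5.51 (SE 0.14, edgeR adjusted p = 1.15e-34). Both steps passed, with 4.16 (SE 0.18) for intermediate over S1-like and 1.35 (SE 0.10, adjusted p = 7.64e-15) for S3-like over intermediate cells. After thinning, a UMI of Slco1a1 was seen in 12.8 to 27.6% of S3-like cells, 0.311 to 1.17% of S1-like cells and 0 to 2.34% of principal cell-like cells. Unthinned shares were 29.1 to 47.5%, 0.329 to 2.08% and 0 to 2.92%, so the S1-like share was within the range of a class that should lack the gene.

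Slc22a7 encodes OAT2, an organic anion carrier also known from liver, and was the most sparsely counted of the 8 genes. It was found at 45.7 CPM in outer medulla, 38.0 in cortex, 65.8 in whole kidney 2 and 90.2 in whole kidney 1 in S3-like cells (21, 25, 63 and 52 UMIs), against 0, 0, 5.83 and 1.74 CPM in S1-like cells (0, 0, 6 and 1 UMIs). The groups did not overlap, and the log2 fold change was 4.63 (SE 0.39, edgeR adjusted p = 1.84e-14). Its difference was spread over both steps. S3-like over intermediate cells gave 2.37 (SE 0.36, adjusted p = 3.67e-06), and intermediate over S1-like cells gave 2.26 (SE 0.64, adjusted p = 0.00633) on 3 to 6 UMIs per library in the intermediate cells, a call lost in 2 of 10 alternatives, 1 of them without whole kidney 1 (log2 1.83, edgeR adjusted p = 0.0910).

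The cation carriers had the smallest of the positive changes. Slc22a2 encodes OCT2, which takes up organic cations such as creatinine from blood. It was at 281 CPM in outer medulla, 320 in cortex, 325 in whole kidney 2 and 318 in whole kidney 1 in S3-like cells, against 89.6, 140, 124 and 155 CPM in S1-like cells, with no overlap. The log2 fold change was 1.39 (SE 0.11, edgeR adjusted p = 5.83e-16). Intermediate over S1-like cells gave 1.08 (SE 0.12, adjusted p = 6.43e-10), and S3-like over intermediate cells gave 0.31 (SE 0.11, adjusted p = 0.0984), which did not pass.

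Slc47a1 encodes MATE1, the proton exchanger that releases organic cations into urine. Its level was 335 CPM in outer medulla, 308 in cortex, 305 in whole kidney 2 and 380 in whole kidney 1 in S3-like cells, against 271, 289, 247 and 306 CPM in S1-like cells. S3-like cells were higher within each library, but the ranges of the groups overlapped. The log2 fold change was 0.36 (SE 0.09, edgeR adjusted p = 0.000695). That call was lost with cells of at least 500 genes (log2 0.16, adjusted p = 0.219) and with groups drawn from the marker UMIs of each cell (log2 0.09, adjusted p = 0.574). Neither step on its own passed, with 0.21 (SE 0.10, adjusted p = 0.117; without cortex 0.31, edgeR adjusted p = 0.0488) for intermediate over S1-like and 0.14 (SE 0.10, adjusted p = 0.546) for S3-like over intermediate cells.

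By step, 6 of the 8 genes were higher in intermediate than in S1-like cells and 0 were lower, where 12.4% and 12.1% of all genes were called in these directions. At the step from intermediate to S3-like cells, 4 genes were higher (Slco1a1, Slc22a7, Slc22a12 and Slc22a6) and Slc22a8 was lower, where 2.82% and 2.45% of all genes were called (5.28% in either direction). Over the alternatives, 2 to 4 of the 8 genes were called higher at this step, Slco1a1 and Slc22a7 in each of them.

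Barcodes with fewer than 100 genes, taken here as a stand-in for free RNA, held the 8 genes as well. Whether they also include shallow or damaged cells was not tested. Slc22a6 averaged 361 ± 47.7 CPM in them over the same 4 libraries, Slc22a12 475 ± 122 CPM and Slco1a1 229 ± 127 CPM (SD, n = 4). In S1-like cells, each of these 3 genes was below that level in every library. Slc22a8 averaged 186 ± 68.8 CPM in these barcodes, and its S1-like level was above them in each of the 4 libraries. The S3-like level of Slc22a8 was above them in outer medulla (144 against 116 CPM) and below them in cortex (249 against 266 CPM), whole kidney 2 (142 against 217 CPM) and whole kidney 1 (125 against 142 CPM). What part free RNA has in the levels of proximal groups was not tested.

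**Figure D2:**
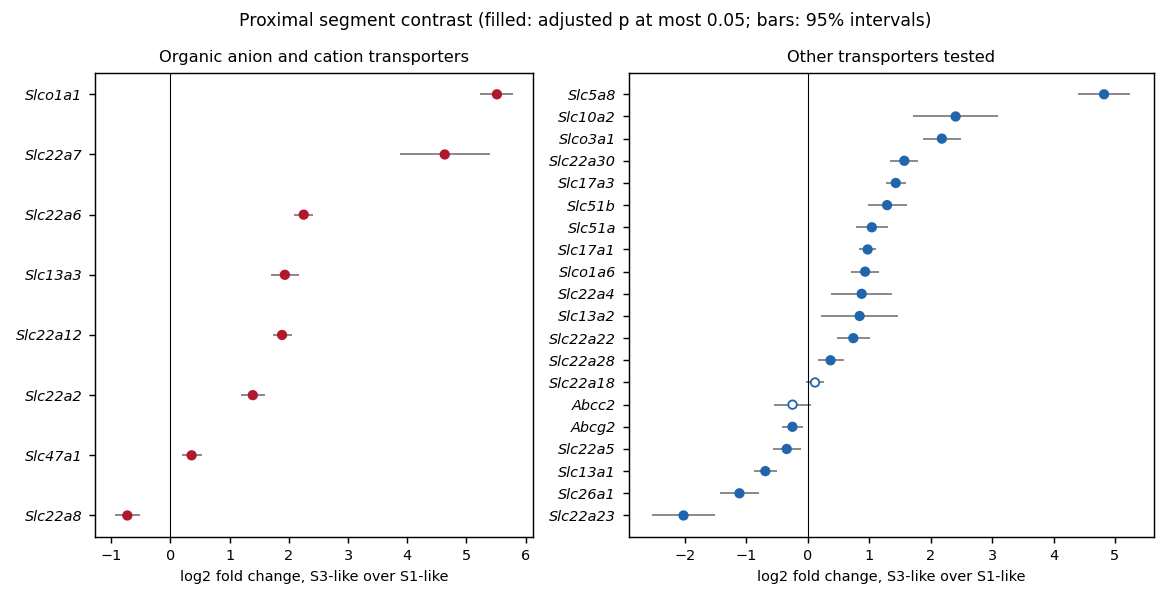
Log2 fold changes of S3-like over S1-like cells from edgeR for the 8 transporters (left) and for 20 of the 21 other transporters tested (right), with bars for 95% intervals and filled points at an adjusted p of at most 0.05. Slco1a1 at 5.51 and Slc5a8 at 4.82 are at the top, and Slc22a8 at -0.73 is the only one of the 8 transporters below 0.

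Of 43 other transporters listed in the files, 21 had enough UMIs to be tested, and 13 were higher and 6 lower in S3-like than in S1-like cells, where 20.2% and 20.4% of all genes were called. The median over the 21 was 0.84, against -0.01 over all genes. Slc5a8, a sodium-coupled monocarboxylate carrier, was higher by 4.82 on the log2 scale (SE 0.22, edgeR adjusted p = 1.87e-24). It was followed by Slc10a2, the ileal-type bile acid carrier (2.40, SE 0.35), by Slco3a1 (2.18, SE 0.16), by Slc22a30 (1.57, SE 0.12), and by Slc17a3, a urate and phosphate carrier of the urine side (1.43, SE 0.08). Slc51b and Slc51a, the subunits of the steroid and bile acid carrier of the blood side, were higher by 1.29 (SE 0.16) and 1.04 (SE 0.13), and Slc17a1 by 0.97 (SE 0.07). Slc22a30 has close relatives in the same gene family, and no source used here says how reads shared between relatives were counted. Slco1a1 and Slco1a6 carry the same uncertainty.

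Among the 6 that were lower, Slc22a23 had a log2 fold change of -2.02 (SE 0.26), the sulfate carriers Slc26a1 and Slc13a1 had -1.11 (SE 0.16) and -0.69 (SE 0.09), and the carnitine carrier Slc22a5 had -0.34 (SE 0.11). The efflux pump Abcg2, also among the 6, had -0.25 (SE 0.09). The apical pump Abcc2 (-0.25, SE 0.15) and Slc22a18 (0.12, SE 0.07) did not pass. Of 11 scaffold proteins and regulators listed, 6 were tested, where 20.2% of all genes were called higher and 20.4% lower. Unlike the carriers, these genes were not left out of the clustering, so their levels may have helped to draw the groups. Pdzk1, which holds URAT1 and other carriers at the apical membrane, was lower (-0.55, SE 0.06), as were Ppara (-0.80, SE 0.12) and Hnf4a (-0.38, SE 0.10). The scaffold Slc9a3r1 (0.27, SE 0.11) was higher, and Nr1h4 (0.03, SE 0.11) did not pass.

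The Cyp7b1-led cells carried a different set of carriers from that of S3-like cells. These 78 cells held 82419 UMIs, and 39 of them came from outer medulla, 19 from inner medulla, 4 from cortex, 10 from whole kidney 2 and 6 from whole kidney 1. Slc7a13 stood at 2038 CPM in them. Only outer medulla had enough of these cells to be given a level, so no test was run, and the UMIs counted are set beside those expected had the cells of each library matched its S3-like cells. Ratios are the common ratio over the 5 libraries, with each library compared with itself. This weights libraries by their UMIs in both groups, so it can differ from the counted over the expected UMIs, and inner medulla had only 28 S3-like cells. Intervals are exact, at 95%, and cover counting error only.

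Slc22a6 had 1 UMI in Cyp7b1-led cells where 69.8 were expected at the S3-like level, and 0 UMIs in each library except whole kidney 2. The common ratio to S3-like cells was 0.0144 (0.000363 to 0.0804). Slc13a3 had 1 UMI where 24.9 were expected (ratio 0.0404, 0.00102 to 0.229), and Slc22a8 had 2 where 10.7 were expected (ratio 0.191, 0.0227 to 0.708). All 3 genes of the basolateral anion exchange system were thus at 2 UMIs or fewer. In outer medulla, where the median depth was 654 UMIs in Cyp7b1-led and 671 UMIs in S3-like cells, Slc22a6 had 0 UMIs, at least 11.1-fold lower than in S3-like cells by a floor of 3 UMIs in that library.

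The other 5 genes were present. Slc22a7 had 31 UMIs where 5.89 were expected, a ratio of 6.07 (3.72 to 9.57) to S3-like cells, and it was counted in all 5 libraries (6, 8, 2, 8 and 7 UMIs in outer medulla, inner medulla, cortex, whole kidney 2 and whole kidney 1). Slco1a1 had 22 where 57.4 were expected (ratio 0.371, 0.228 to 0.575). For a pair of genes the reading depended on how libraries were joined. Slc22a2 had 36 where 22.3 were expected, with a ratio of 1.49 (1.01 to 2.13) matched by library and 1.39 (0.969 to 1.94) with UMIs pooled over libraries. Slc22a12 had 67 where 84.5 were expected, with a ratio of 0.788 (0.603 to 1.01) matched by library and 0.718 (0.555 to 0.915) pooled. Slc47a1 had 23 where 28.7 were expected (ratio 0.773, 0.475 to 1.20), which was not separable from its S3-like level at this depth.

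**Figure D3:**
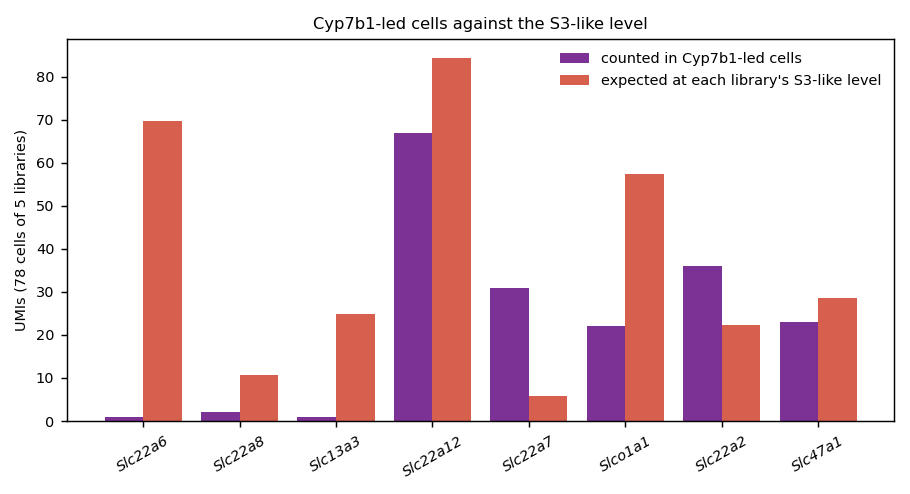
UMIs of each transporter counted in the 78 Cyp7b1-led cells of 5 libraries (left bars) and expected had the cells of each library matched the S3-like cells of that library (right bars). Slc22a6, Slc22a8 and Slc13a3 have 1, 2 and 1 UMIs against 69.8, 10.7 and 24.9 expected, and Slc22a7 has 31 against 5.89.

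Between regions there was 1 library each, so ratios carry counting intervals and no test, and whole kidney 2 over whole kidney 1 shows how far a pair of libraries of the same kind differed. Over all cells, the level of each of the 8 genes was lower in outer medulla than in cortex except Slc22a7 (20.0 and 12.1 CPM) and Slc47a1 (249 and 244 CPM). In inner medulla, where proximal cells were few, 7 genes stood between 9.60 CPM (Slc22a8) and 74.9 CPM (Slc22a12), against 184 to 583 CPM in cortex. Slc22a7 was the exception there, with 19.2 CPM in inner medulla and 12.1 CPM in cortex. A lower level over all cells cannot tell fewer proximal cells from less RNA per proximal cell, so the regions were compared within proximal cells.

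Within proximal cells of outer medulla over cortex, intervals lay below 1 for 2 of the 8 genes and above 1 for 0, where this was so for 10.3% and 7.84% of the genes with at least 30 UMIs in either library. These genes were Slc22a8, with 218 CPM in outer medulla and 344 in cortex (ratio 0.634, 0.549 to 0.730), and Slc13a3, with 227 and 322 CPM (ratio 0.707, 0.613 to 0.814). In whole kidney 2 over whole kidney 1 the intervals lay below 1 for 4 genes and above 1 for 1, where this was so for 11.4% and 8.33% of genes. Slco1a1 had the lowest of those ratios, with 351 CPM in whole kidney 2 and 478 in whole kidney 1 (ratio 0.734, 0.664 to 0.811). Slc22a8, with 224 and 193 CPM, had a ratio of 1.16 (1.003 to 1.34), and Slc13a3, with 212 and 226 CPM, one of 0.937 (0.815 to 1.08). In all proximal cells, intervals thus missed 1 for more of the 8 genes between the libraries of 1 kind than between the regions. Slc22a8 and Slc13a3 differed by less between the libraries of 1 kind. Intervals narrow with more UMIs. Proximal cells held 2444431 UMIs in whole kidney 2 and 1498735 in whole kidney 1, against 1257708 in outer medulla and 1995133 in cortex.

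Both genes were also lower in the outer medulla library within S1-like and within S3-like cells. The share of all genes with intervals off 1 was not taken within these groups, so counts of genes there have no background. Segment S1 lies in the cortex, and where the S1-like cells of the outer medulla library came from was not tested. In S3-like cells the ratio of outer medulla over cortex was 0.576 (0.426 to 0.772) for Slc22a8 and 0.628 (0.507 to 0.773) for Slc13a3. In S1-like cells it was 0.568 (0.451 to 0.711) and 0.505 (0.344 to 0.725), and in intermediate cells 0.893 (0.682 to 1.17) and 0.902 (0.703 to 1.15), where both intervals include 1. In S1-like cells, Slc22a12 (0.577, 0.450 to 0.734), Slc22a2 (0.639, 0.435 to 0.919) and Slc22a6 (0.656, 0.487 to 0.875) were lower in outer medulla as well, while Slc47a1 was not (0.939, 0.750 to 1.17). In the S1-like cells of the whole kidney libraries, Slc22a12 differed about as much, with a ratio of 0.605 (0.513 to 0.714) for whole kidney 2 over whole kidney 1.

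**Figure D4:**
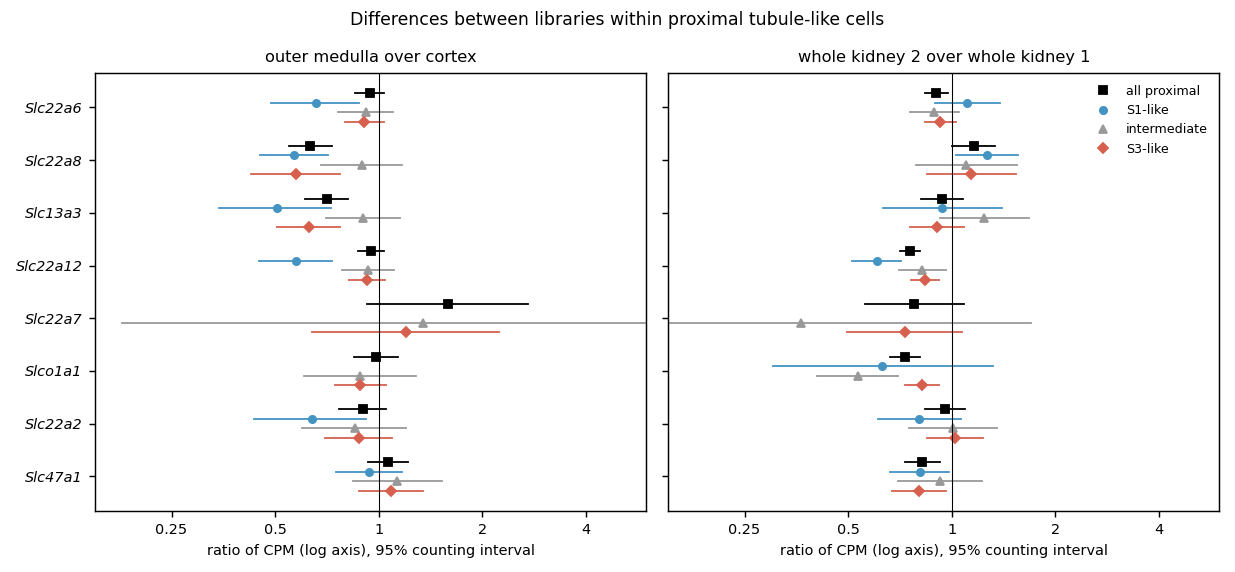
Ratios of CPM with exact 95% counting intervals on a log axis, for outer medulla over cortex (left) and whole kidney 2 over whole kidney 1 (right), in all proximal cells and within each group, where both sums had at least 3 UMIs. Slc22a8 and Slc13a3 are below 1 in outer medulla in all proximal cells (0.634 and 0.707) and in S1-like and S3-like cells, and Slco1a1 and Slc22a12 differ between the whole kidney libraries.

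The 90 proximal cells of inner medulla had an uncommon mixture, with 21.1% Cyp7b1-led cells, against 0.178% in cortex. Slc22a7 stood at 185 CPM in the proximal cells of inner medulla, against 15.04 CPM in cortex, a ratio of 12.3 (5.35 to 25.8) on 10 and 30 UMIs, and 8 of the 10 UMIs were in Cyp7b1-led cells. Slco1a1 was at 517 and 235 CPM (ratio 2.20, 1.44 to 3.22), with 8 of its 28 UMIs in Cyp7b1-led cells. Slc22a8 was at 92.3 and 344 CPM (ratio 0.268, 0.0869 to 0.629), and none of its 5 UMIs was in Cyp7b1-led cells. The other 5 genes had intervals that include 1. Over all genes with at least 30 UMIs in either library, 2.71% had an interval below 1 and 4.85% one above 1.

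Outside the proximal tubule, the 8 genes were found near the level expected from the proximal markers in the same classes. In the named non-proximal classes together (1945528 UMIs), Slc22a6 had 154 UMIs where 158 were expected, Slc22a12 had 204 where 203 were expected, and Slco1a1 had 96 where 93.5 were expected. Expected UMIs were derived from the proximal markers in the class, Kap among them, and the RNA of barcodes with fewer than 100 genes. Free RNA and proximal cells sharing a barcode would both raise those markers, so the ratios cannot tell them apart. Over the 8 genes, the ratio of counted to expected UMIs ran from 0.885 (0.696 to 1.11) for Slc22a8 to 1.26 (0.605 to 2.32) for Slc22a7, and each interval includes 1. With the expectation taken from the ratios of the genes to the markers in proximal cells instead, the ratio ran from 0.840 (0.712 to 0.983) for Slc22a6, whose interval then lies below 1, to 1.22 (0.970 to 1.51) for Slc22a2, and the other 7 intervals include 1. The 131 thin limb-like cells of inner medulla had 0 UMIs of each of the 8 genes among 51566 UMIs, which allows up to 58.2 CPM of each.

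Intervals by class are not adjusted for the number of genes and classes, so some would miss 1 by counting error alone. Slc13a3 in principal cell-like cells exceeded its expected count, with 14 UMIs where 6.40 were expected (ratio 2.19, 1.20 to 3.67). These were 1, 2, 3, 6 and 2 UMIs in outer medulla, inner medulla, cortex, whole kidney 2 and whole kidney 1, on 171, 477, 66, 64 and 56 cells. Below expectation were Slc13a3 in connecting tubule-like cells (4 UMIs, 15.6 expected), Slc13a3 in intercalated cell-like cells (2 UMIs, 7.58 expected) and Slc22a6 in principal cell-like cells (4 UMIs, 13.0 expected). Endothelial-like cells, whose cluster was also led by the mural genes Rgs5 and Acta2, held the highest levels among these classes, such as 369 CPM of Slc22a6 as a mean over 3 libraries. They had 48 UMIs of Slc22a6 where 44.7 were expected, and their share of proximal markers was 84.4 to 122% of that in the small barcodes. An unnamed cluster of 486 cells led by MHC class II genes was at 84.2 to 107%. There, Slc22a8 had 89 UMIs where 61.8 were expected (ratio 1.44, 1.16 to 1.77), Slco1a1 had 30 where 60.6 were expected (ratio 0.495, 0.334 to 0.706) and Slc22a6 had 89 where 116 were expected (ratio 0.765, 0.615 to 0.942). With the expectation from proximal cells, these 3 and the 4 departures by class above kept their side of 1, except that the interval of Slc13a3 in intercalated cell-like cells then reached 1.002, and Slc22a8 in connecting tubule-like cells, with 25 UMIs where 15.4 were expected, then exceeded it (ratio 1.63, 1.05 to 2.40).

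**Figure D5:**
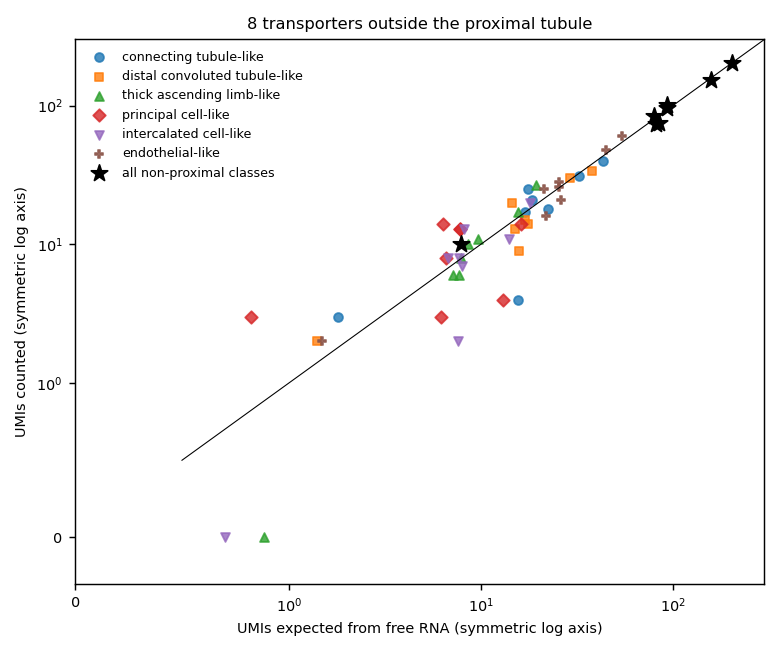
UMIs of the 8 transporters counted in non-proximal classes against those expected from free RNA, as estimated from the proximal markers in the class. Axes are symmetric log, with 1 point per gene and class summed over libraries and stars for all non-proximal classes together. The stars lie near the line of equality, with ratios of 0.885 to 1.26.

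The genes most like each transporter were taken over 52 sums of a class or proximal group in a library, by Pearson's r of log2(CPM + 10) among 6400 genes with at least 100 CPM in 1 or more of the sums. The sums share libraries, depth and free RNA, so r is a description. Slc22a12 was most like Acy3 (r = 0.964), Slc27a2 (0.962) and Cyp4b1 (0.962), and Slc47a1 was most like Akr1c21 (0.947), Cyp2j5 (0.946) and Acsm2 (0.946). Slc22a2 went with Pecr (0.901), Ces1f (0.900) and Amacr (0.892), and Slc22a6 with Inmt (0.897), Nme2 (0.871) and Cyp2e1 (0.867). Slc22a8 went with the sulfate carrier Slc13a1 (0.885), with Igfbp4 (0.863) and Fam151a (0.856). Slco1a1 went with Acsm3 (0.878), the S3 marker Slc7a13 (0.877) and Cndp2 (0.872), and Slc13a3 with Aspdh (0.859), Cyp2j13 (0.857) and Slc51a (0.853). Slc22a7 had the loosest neighbours, Mep1b (0.778), Gm6300 (0.741) and Hsd17b2 (0.739).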

How the data were processed

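Single-cell RNA of mouse kidney was measured by Drop-seq in 5 libraries. The authors deposited tables of UMI counts, whole numbers for each gene symbol in each barcode, and the values show no scaling. The submitters' processing notes list Seurat 2.3.1 and the build mm9 without saying what either was used for. The aligner, the annotation and the use of strand are not stated in any source read here. No mitochondrially encoded genes were listed, so RNA quality could not be read from them. The 8 genes, the lists and the tests were chosen with earlier results of these data known.

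Cells were barcodes with at least 200 genes. Scrublet (scanpy 1.11.5, expected rate of 5%) marked 22 cells (0.182%), too few for the caller to have worked, so doublets were kept and an alternative removed the 5% with the highest scores. Cells were clustered with leidenalg 0.10.2 on 2000 variable genes and 30 principal components, without the 8 genes and the list of other transporters. Proximal cells were clustered again on Pearson residuals of 1000 genes and 10 components. The log2 level of each marker was taken relative to its median over the proximal sub-clusters. A sub-cluster was S1-like or S3-like where the mean of 1 marker list exceeded the other by more than 1. At least 3 markers of that list had to be seen in 5% of its cells. A sub-cluster could thus be S3-like through low S1 markers. The Cyp7b1-led sub-cluster was set apart by an excess of S3 over S1 markers of more than 4. Names rebuilt this way may differ from the study's.

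UMIs were summed per library and group (at least 30 cells and 20000 UMIs) and tested with edgeR 4.0.16 (R 4.3.3: TMM factors, filterByExpr, quasi-likelihood, library as block). DESeq2 1.42.0 was an alternative. On simulated counts for the S3-like over S1-like comparison (5423 genes, 200 changed), edgeR found 91% of 2-fold and 100% of 4-fold changes. The changed genes were drawn from the better counted genes, at a dispersion fixed beforehand. All simulated sums shared 1 set of mean levels apart from the changes, without differences between libraries, so the rates may be too high for these data. These rates do not cover sparse genes such as Slc22a7. Intervals of levels and of ratios of counts are exact at 95% and cover counting error only. Those of edgeR's log2 fold changes are approximate, from a normal distribution and the SE. That SE was derived from the fold change and the F statistic of the quasi-likelihood test. The named genes are the 8 genes, up to 8 list members in each direction past the threshold by size, and the 3 genes most like each. The unpassed list members, the scaffold list, the markers and the Cyp7b1-led genes were named after their values were seen. Values of 2 list members are not reported here. No genome coordinates from the count tables are given, and promoters are RefSeq's (GRCm38.p6).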

Additional observations from a re-analysis of the deposited data

Results flagged for a closer look

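In 3 cases outer medulla and cortex went opposite ways between proximal groups. With 1 library each, none of these differences was tested, and the values are log2 ratios of CPM + 10. Slc22a8 in intermediate over S1-like cells was 0.55 in outer medulla and -0.08 in cortex, a difference of 0.631, with -0.24 in whole kidney 2 and -0.04 in whole kidney 1. Slc47a1 in the same comparison was 0.16 in outer medulla and -0.10 in cortex, a difference of 0.262, with 0.38 in whole kidney 2 and 0.19 in whole kidney 1. Slc13a3 in S3-like over intermediate cells was -0.46 in outer medulla and 0.05 in cortex, a difference of -0.508, with -0.14 in whole kidney 2 and 0.31 in whole kidney 1.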

How the results depend on the processing

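For S3-like over S1-like cells, 11 alternatives were run per gene: DESeq2, no TMM factors, no filter, each of the 4 libraries left out, no library block, 500 genes per cell, groups from marker UMIs, and the top doublet scores removed. All 8 genes kept their direction in them, and 7 kept their call, Slc47a1 being the exception (log2 0.0911 with groups from marker UMIs, 0.16 at 500 genes). Groups from marker UMIs gave smaller changes for Slco1a1 (3.39) and Slc13a3 (0.86) and a larger one for Slc22a8 (-1.25). Without TMM factors the median of all genes moved to -0.13. The library block of the fit pairs the S3-like and S1-like sums of each library. Between regions no paired analysis was possible, because the regions have 1 library each.

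Values near 0 changed sign. Slc13a3 in S3-like over intermediate cells was -0.0121 with DESeq2, -0.0108 without the library block, -0.0521 without TMM factors and -0.0575 at 500 genes, and ran from -0.11 without whole kidney 1 to 0.118 without outer medulla when 1 library was left out. Slc22a8 in intermediate over S1-like cells was -0.00364 without TMM factors, and ran from -0.0776 without outer medulla to 0.166 without whole kidney 2.

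The ratios of outer medulla over cortex moved in S1-like cells alone for Slc22a2 (0.639), Slc22a6 (0.656), Slc22a12 (0.577), Slco1a1 (0.360, on 2 and 11 UMIs) and Slc13a3 (0.505), and in intermediate cells alone for Slc22a8 (0.893) and Slc13a3 (0.902). Mean levels in non-proximal classes were also taken with the free RNA estimate subtracted, which cannot be told from proximal cells sharing a barcode. They moved to 3.60 CPM for Slc22a2, -4.86 for Slc22a6, 0.915 for Slc22a7 and -5.23 for Slc22a8. For Slc22a12, Slc47a1, Slco1a1 and Slc13a3 they moved to 0.399, 4.39, 1.80 and -3.44 CPM. The choice between matched and pooled libraries for the Cyp7b1-led cells, and the expectation from proximal cells, were made after seeing the data. With a pseudocount of 1 CPM, at least 2 of the 3 genes most alike were kept for 3 of the 8 genes. The cause of these moves was not tested, and the low depth per cell limits what can be said of Slc22a7 and of the Cyp7b1-led cells.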

Other observations

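Other members of the transporter list stood out in the Cyp7b1-led cells, named here after their values were seen. Slc22a19, which encodes the mouse anion carrier OAT5, had 48 UMIs in them where 1.44 were expected at the S3-like level of each library (common ratio over libraries 88.0, 45.7 to 177, exact 95% counting interval). Counted over expected UMIs gave the lower value of 33.4, because 0.984 of the expected UMIs came from 1 UMI in the S3-like cells of inner medulla. It was counted in all 5 libraries, with 19 UMIs in outer medulla, 9 in inner medulla, 1 in cortex, 11 in whole kidney 2 and 8 in whole kidney 1. Slc22a13, an anion carrier known as OAT10, had 29 UMIs where 0.367 were expected (ratio 56.3, 23.9 to 142). Both genes were left out of the clustering. Slc22a18 had 42 UMIs where 47.6 were expected (ratio 0.885, 0.621 to 1.23). Cyp2e1, a cytochrome on the S2 marker list, was at 267 CPM in the Cyp7b1-led cells. Its mean was 3326 CPM in S3-like and 3207 CPM in intermediate cells. Kap was at 138597 CPM in the Cyp7b1-led cells, against a mean of 97348 CPM in S3-like cells.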
